A study of Homo sapiens with 8 samples.

Results

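The 10 genes described here form the core of the circadian clock: the activators ARNTL (BMAL1) and CLOCK, the repressors PER1, PER2, PER3, CRY1 and CRY2, the nuclear receptors NR1D1 and NR1D2, and the output factor DBP. They were chosen by gene name, and all 10 of 10 are among the 25268 gene symbols of the tables. RNA with polyA tails was sequenced from 2 human fibroblast lines, labelled as population controls and called line 1 and line 2 here. Each line was transfected with an siRNA, a short RNA that directs the breakdown of a matching mRNA, using Lipofectamine RNAiMax; cultures were kept in DMEM with 10% FBS and PenStrep. The siRNA either targeted SUPT4H1 or was the control. Each siRNA has 2 replicates per line, which gives 4 control samples and 4 SUPT4H1 siRNA samples. SUPT4H1 encodes SPT4, a subunit of DSIF, the elongation factor that travels with RNA polymerase II. The sources used here give neither the hours from transfection to harvest nor any synchronisation of the cultures. The phase of the clock in each sample, and whether its cells shared 1 phase, is therefore unknown.

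In the clock, ARNTL and CLOCK pair and bind E-box elements, where they switch on the PER, CRY, NR1D and DBP genes. PER and CRY proteins return to the nucleus and inhibit the pair, while NR1D1 and NR1D2 (REV-ERB alpha and beta) repress ARNTL through elements shared with the ROR activators. DBP binds D-box elements and passes the rhythm on to other genes. Many of these transcripts are short-lived, and cultured fibroblasts keep a clock that serum, glucocorticoids and cyclic AMP can reset.

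Values are FPKM, sequenced fragments scaled by transcript length and by library size, as the authors deposited them, and so can be compared between genes. In bulk RNA, fewer cells of a type and less RNA per cell cannot be told apart. Differences were tested with limma on log2(FPKM + 1) with the line as replicate block, and a gene counts as called where its p adjusted over all 11486 genes tested is under 0.05. For low genes the added 1 makes the log2 change smaller than that of the FPKM. The number of fragments is not given. The deposited intervals reach from 3.74% (NR1D2) to 13.6% (DBP) of the value to each side for these genes. The sources used here do not say which errors they cover. Each belongs to 1 sample, so it is not read here as the spread between samples. The labels do not tie replicates to separate cultures, so each p-value reflects the spread among these samples alone, and that spread may be technical. SUPT4H1 mRNA, the siRNA target, was at 25.6 and 25.6 FPKM with control siRNA in line 1 and 26.2 and 28.3 in line 2, against 1.37 and 1.43, and 1.69 and 1.74, with SUPT4H1 siRNA. It was left at 5.46% of the control level in line 1 and at 6.3% in line 2, with a log2 change of -3.42 (limma adjusted p = 2.1e-10). All 10 fibroblast markers examined reached 1 FPKM in every sample, and their summed level was 12500 to 13300 FPKM in control and 11300 to 13200 in SUPT4H1 siRNA samples. Single markers varied more widely over the 8 samples, DCN from 1830 to 5570, VIM from 2470 to 5270 and S100A4 from 662 to 1510 FPKM. Of the defining markers of epithelium, endothelium and melanocytes none reached 1 FPKM in all samples, and KRT5 and the T cell gene CD3E were at 0 throughout, while the monocyte marker CD14 stood at 1.89 to 3.1 FPKM. The 3 smooth muscle genes, mainly CNN1 (0.774 to 14.1), summed to 1.86 to 9.71 FPKM in control and 1.31 to 14.4 in SUPT4H1 siRNA samples, and their part in the results was not tested.

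Letter matches to clock elements were looked for around the start sites of these genes. RefSeq windows of GRCh38.p14, from 250 bases before to 50 bases from each start on, matched all 10 genes with 15 listed starts, and were searched on both strands for the E-box CACGTG, the E'-box CACGTT, the D-box TTANGTAA, the RORE core TAGGTCA and the cyclic AMP element TGACGTCA. The motifs searched do not contain one another. These stretches are shown because they hold letter matches to the motifs of the factors described below, with the match in capitals, 5′ to 3′ on the gene's strand.
PER1, E-box, chr17:8152552-8152597, minus strand: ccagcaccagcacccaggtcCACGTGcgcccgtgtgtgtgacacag
PER2, E'-box, chr2:238288782-238288827, minus strand: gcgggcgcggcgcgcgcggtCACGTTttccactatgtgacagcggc
PER2, D-box, chr2:238288586-238288633, minus strand: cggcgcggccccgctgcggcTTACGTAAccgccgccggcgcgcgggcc
PER3, D-box, chr1:7784094-7784141, plus strand: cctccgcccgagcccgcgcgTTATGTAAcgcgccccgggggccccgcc
CRY1, E'-box, chr12:107093613-107093658, minus strand: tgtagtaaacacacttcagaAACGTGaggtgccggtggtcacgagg
NR1D1, E'-box, chr17:40100732-40100777, minus strand: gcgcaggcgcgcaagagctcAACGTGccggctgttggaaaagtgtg
NR1D2, D-box and E-box, chr3:23945907-23945991, plus strand: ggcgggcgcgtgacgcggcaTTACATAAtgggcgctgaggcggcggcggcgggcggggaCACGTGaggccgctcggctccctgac
NR1D2, further E-box, chr3:23945996-23946041, plus strand: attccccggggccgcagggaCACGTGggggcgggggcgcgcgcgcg
ARNTL, RORE core, chr11:13277809-13277837, plus strand: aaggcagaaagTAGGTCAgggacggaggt

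An E-box or E'-box lay in 7 of the 15 windows of these genes, against 12.2% of all 35116 windows. The E-box alone is in 7.26% of all windows, the E'-box in 5.34%, the D-box in 2.18%, the RORE core in 1.85% and the cyclic AMP element in 1.85%. CLOCK and CRY2 each have an E'-box in 1 of their 2 listed windows, and CRY2 has a RORE core there too. The window of DBP holds none of the 5 motifs, which says only that these letters are not in this window. The matches are of letters alone, and binding was not measured. The start sites are those of GRCh38.p14 and were not matched to the hg19 loci of the tables.

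NR1D2 was by far the most abundant clock transcript, at 32.6 ± 3.48 FPKM (SD over the 8 samples), with every sample between 27.8 and 37.8. NR1D1 followed at 6.98 ± 0.67, CRY2 at 6.13 ± 0.86, DBP at 6.06 ± 0.95, PER3 at 4.81 ± 0.50, CRY1 at 4.24 ± 0.28, CLOCK at 3.90 ± 0.31, ARNTL at 3.20 ± 0.25, PER1 at 2.32 ± 0.40 and PER2 at 1.63 ± 0.32 FPKM. In this order only NR1D2 and NR1D1, and ARNTL and PER1, are neighbours whose sample ranges do not overlap. Line 1 had the higher level in both control samples for 9 of the 10 genes, CRY1 being the one whose control samples overlapped between the lines. The share of all genes with such a gap between the lines was not counted, so whether it is particular to the clock genes is not known. The gap was widest for CRY2, whose control mean in line 2 was 0.76 times that in line 1. All 10 genes passed the filter of a mean of 1 FPKM.

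**Figure D1:**
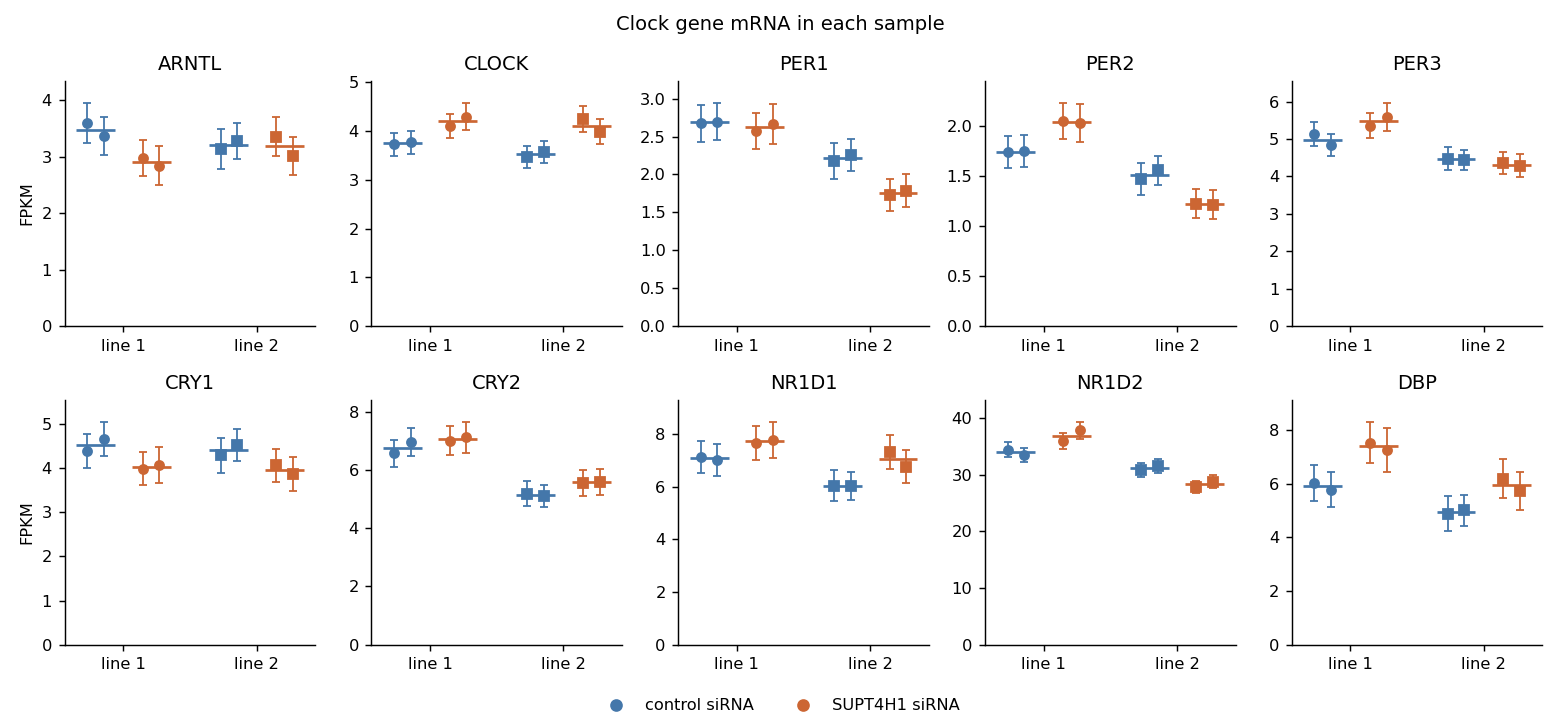
FPKM of each clock gene in each sample, with the deposited interval as error bar and the mean of the 2 replicates as a horizontal line; circles are line 1 and squares line 2, blue is control siRNA and orange SUPT4H1 siRNA, and every axis starts at 0. CLOCK and DBP are higher and CRY1 is lower after SUPT4H1 siRNA in both lines, while PER2 and NR1D2 are higher in line 1 and lower in line 2.

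After SUPT4H1 siRNA, DBP, CLOCK and NR1D1 mRNA rose and CRY1 mRNA fell, all by less than 30% in either line. These are 4 of the 10 clock genes, beside 41.4% of all genes tested with the same fit, so the share called is near the background. The 3 rises stand beside 26.4% of all genes called higher, and the single fall beside 15.0% called lower. Rises were 63.8% of all calls, and 50.2% when the samples were scaled by median ratios. Without a term for the line, 0 of the 10 genes were called by limma, beside 5.26% of all genes, and 3 of them had an unadjusted p under 0.05. The median log2 change of the 10 genes was 0.01, with 5 above 0, beside 0.03 over all genes, and the median size was 0.11 beside 0.09.

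Of the activators, CLOCK rose and ARNTL did not pass over both lines. CLOCK (chr4:56294068-56413076 in hg19), the histone acetyltransferase partner of the pair, had 3.73 and 3.77 FPKM with control siRNA in line 1 and 4.10 and 4.30 with SUPT4H1 siRNA. The line 2 levels were 3.47 and 3.57 FPKM with control siRNA and 3.98 and 4.24 with SUPT4H1 siRNA. All 4 SUPT4H1 siRNA samples lay above all 4 control samples. CLOCK rose by 0.15 on the log2 scale (SE 0.03, limma adjusted p = 0.00578, and adjusted p = 0.0779 without the replicate block). The FPKM differed by 12.1% in line 1, which did not pass alone (adjusted p = 0.0595), and by 16.8% in line 2 (0.0133).

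In line 1, ARNTL (chr11:13299325-13408812), the partner of CLOCK, read 3.60 and 3.37 FPKM in control samples and 2.98 and 2.84 in SUPT4H1 siRNA samples. Line 2 gave 3.14 and 3.28 FPKM in control and 3.36 and 3.01 in SUPT4H1 siRNA samples. The groups were apart in line 1 and overlapped in line 2. Over both lines the log2 difference was -0.10 and did not pass (limma adjusted p = 0.133). In line 1 alone ARNTL fell by 16.6% (adjusted p = 0.0282), and the difference between the lines did not pass (adjusted p = 0.187). The ratio of CLOCK to ARNTL FPKM was 1.04 and 1.12 in the control samples of line 1 and 1.11 and 1.09 in those of line 2. After SUPT4H1 siRNA it was 1.38 and 1.51 in line 1 and 1.26 and 1.32 in line 2, above every control sample. This ratio restates the levels of CLOCK and ARNTL given above and was not tested.

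The cryptochromes, which bind and inhibit the activator pair, did not move together: CRY1 fell and CRY2 did not pass. CRY1 (chr12:107385143-107487635) measured 4.39 and 4.67 FPKM (control siRNA) and 4.00 and 4.07 (SUPT4H1 siRNA) in line 1. For line 2 the values were 4.30 and 4.53 FPKM (control) and 4.07 and 3.88 (SUPT4H1 siRNA). All 4 SUPT4H1 siRNA samples lay below all 4 control samples. CRY1 fell by 0.13 on the log2 scale (SE 0.03, limma adjusted p = 0.0131, and adjusted p = 0.107 without the replicate block). The percent change was -10.9 in line 1 and -9.98 in line 2, neither of which passed alone (adjusted p = 0.0588 and 0.063).

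CRY2 (chr11:45868669-45904799) had 6.56 and 6.94 FPKM with control siRNA in line 1 and 6.99 and 7.11 with SUPT4H1 siRNA. The line 2 levels were 5.17 and 5.09 FPKM with control siRNA and 5.55 and 5.58 with SUPT4H1 siRNA. The samples were apart in the upward direction within each line, narrowly so in line 1, and the log2 difference of 0.08 did not pass (limma adjusted p = 0.0562). The ratio of CRY2 to CRY1 FPKM was 1.49 in both control samples of line 1 and 1.75 in both SUPT4H1 siRNA samples. In line 2 the ratio was 1.2 and 1.12 in the control samples, against 1.36 and 1.44. It restates the levels of CRY1 and CRY2 and was not tested either.

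None of the 3 period genes, whose proteins join the cryptochromes in the inhibitory complex, passed over both lines. In line 1, PER1 (chr17:8043788-8055753) read 2.68 and 2.70 FPKM in control samples and 2.57 and 2.67 in SUPT4H1 siRNA samples. Line 2 gave 2.18 and 2.26 FPKM in control and 1.73 and 1.79 in SUPT4H1 siRNA samples. The 2 groups nearly touched in line 1 and were well apart in line 2. The log2 difference over both lines was -0.12 (limma adjusted p = 0.0642). In line 2 alone PER1 fell by 20.7% (adjusted p = 0.00611), and the difference between the lines did not pass (adjusted p = 0.117).

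PER2 (chr2:239152679-239197207) went opposite ways in the lines. With control siRNA its level in line 1 was 1.74 and 1.75 FPKM, and with SUPT4H1 siRNA 2.05 and 2.03, 17% higher. For line 2 the values were 1.47 and 1.56 FPKM (control) and 1.23 and 1.21 (SUPT4H1 siRNA). The percent change there was -19.45. No sample of 1 group reached the other group in either line. The log2 difference was 0.15 in line 1 (limma adjusted p = 0.0666) and -0.18 in line 2 (adjusted p = 0.0248), and the difference between them passed (-0.33, SE 0.07, adjusted p = 0.0325). This call was lost without any 1 of the 8 samples, with adjusted p from 0.0521 to 0.0914 and a difference of -0.353 to -0.301, and a pseudocount of 0.1 put it at -0.505. Over both lines PER2 differed by -0.02 (adjusted p = 0.87).

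PER3 (chr1:7844489-7905240) measured 5.13 and 4.85 FPKM (control siRNA) and 5.36 and 5.58 (SUPT4H1 siRNA) in line 1. The line 2 levels were 4.48 and 4.44 FPKM with control siRNA and 4.35 and 4.29 with SUPT4H1 siRNA. The percent change was 9.7 in line 1 and -3.11 in line 2, with no overlap in either line. Neither the log2 difference over both lines (0.04, limma adjusted p = 0.467) nor the difference between the lines (-0.15, adjusted p = 0.164) passed.

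The 2 REV-ERB genes parted in line 2. NR1D1 (chr17:38249037-38256978) had 7.14 and 7.03 FPKM with control siRNA in line 1 and 7.68 and 7.78 with SUPT4H1 siRNA. Line 2 gave 6.04 and 6.02 FPKM in control and 7.34 and 6.77 in SUPT4H1 siRNA samples. The SUPT4H1 siRNA samples were the higher ones in each line. NR1D1 rose by 0.15 on the log2 scale (SE 0.03, limma adjusted p = 0.00612, and adjusted p = 0.262 without the replicate block). The FPKM differed by 9.03% in line 1, which did not pass alone (adjusted p = 0.0782), and by 16.9% in line 2 (0.00566). Its locus shares 1084 bases with THRA, the thyroid hormone receptor gene, and no use of strand is stated, so reads of the shared stretch cannot be told apart. THRA stood at 17.3 ± 1.53 and 18.3 ± 1.03 FPKM (SD, n = 4) and did not pass over both lines (log2 difference 0.07, limma adjusted p = 0.0501). In line 2, where NR1D1 passed alone, THRA was called higher too (log2 change 0.11, adjusted p = 0.0198), and in line 1 neither was called (0.412 for THRA).

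In line 1, NR1D2 (chr3:23986751-24022109), the gene with 2 E-boxes in 1 listed window, read 34.4 and 33.5 FPKM in control samples and 36.0 and 37.8 in SUPT4H1 siRNA samples. For line 2 the values were 30.8 and 31.5 FPKM (control) and 27.8 and 28.8 (SUPT4H1 siRNA). It rose by 8.7% in line 1 (log2 change 0.12, limma adjusted p = 0.0338) and fell in line 2, with a percent change of -9.27 (log2 change -0.14, adjusted p = 0.013), and no samples overlapped. The difference between the lines passed (-0.25, SE 0.05, adjusted p = 0.0161). Leaving out replicate 2 of line 1 ended this call, whether of control siRNA (adjusted p = 0.0693) or of SUPT4H1 siRNA (0.0575), as did leaving out control line 2 replicate 2 (0.0525) or SUPT4H1 line 2 replicate 1 (0.0649). Over both lines the difference was -0.01 (adjusted p = 0.898).

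DBP (chr19:49133817-49140807), the D-box transcription factor, had the largest change over both lines of the 10 genes. With control siRNA its level in line 1 was 6.05 and 5.79 FPKM, and with SUPT4H1 siRNA 7.55 and 7.27. The line 2 levels were 4.89 and 5.02 FPKM with control siRNA and 6.20 and 5.73 with SUPT4H1 siRNA. The groups were apart in each line, although the control samples of line 1 overlap the SUPT4H1 siRNA samples of line 2. DBP rose by 0.25 on the log2 scale (SE 0.03, limma adjusted p = 5.52e-04, and adjusted p = 0.183 without the replicate block), a rise of 25.3% in line 1 and 20.4% in line 2, and passed in each line alone (adjusted p = 0.00213 and 0.00432).

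**Figure D2:**
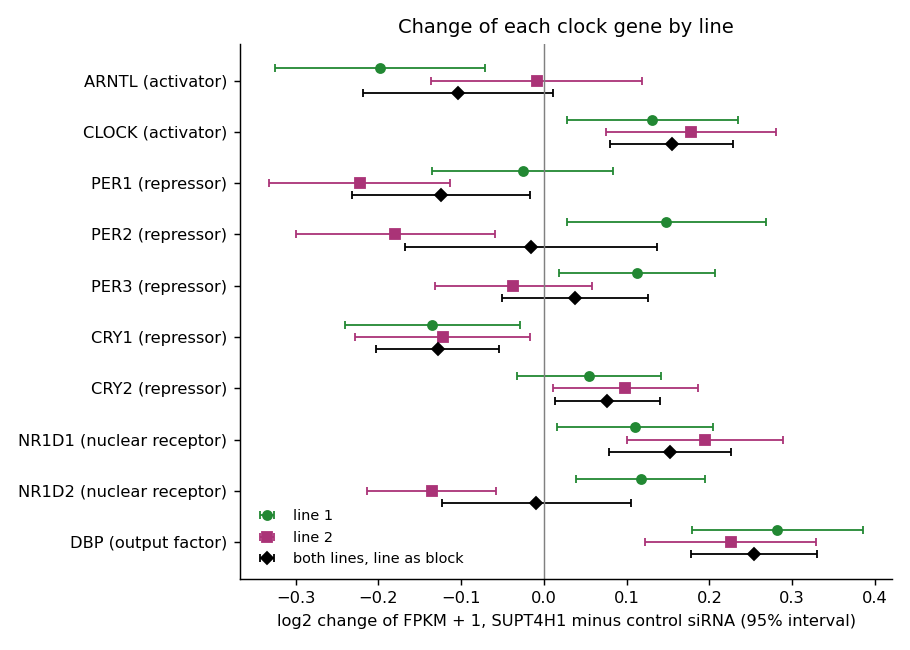
Log2 change of each clock gene on the log2(FPKM + 1) scale, SUPT4H1 minus control siRNA, with the 95% confidence interval of the limma fit, for line 1 (circles), line 2 (squares) and both lines with the line as block (diamonds). The intervals of DBP, CLOCK, NR1D1 and CRY1 keep to 1 side of 0 in each line, while those of PER2 and NR1D2 lie on opposite sides of 0 in the 2 lines. The intervals are not adjusted for the number of genes tested. By adjusted p, CRY1 was called in neither line alone, and CLOCK, NR1D1 and PER2 were not called in line 1.

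By role, the activators were at log2 differences of 0.15 (CLOCK) and -0.10 (ARNTL), the repressors at -0.13 (CRY1), -0.12 (PER1), -0.02 (PER2), 0.04 (PER3) and 0.08 (CRY2), the nuclear receptors at 0.15 (NR1D1) and -0.01 (NR1D2), and the output factor DBP at 0.25. No role with more than 1 gene thus moved in 1 direction as a whole. Counted within the lines, 3 of the 10 genes were called in line 1, beside 29.4% of all genes, and 6 in line 2, beside 41.8%. CLOCK, CRY2, NR1D1 and DBP had both SUPT4H1 siRNA samples above both control samples in each line, which 28.7% of all genes did. PER1 and CRY1 had them below in each line, as did 16.5% of all genes. PER2, PER3 and NR1D2 were apart in opposite directions, which was so for 6.76% of all genes. The difference between the lines passed for 2 of the 10 genes, beside 8.87% of all genes. The loci of the genes that rose span 119 kb (CLOCK), 7.94 kb (NR1D1) and 6.99 kb (DBP), and that of CRY1, which fell, spans 102.5 kb. Any relation between the change and locus span was not tested.

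**Figure D3:**
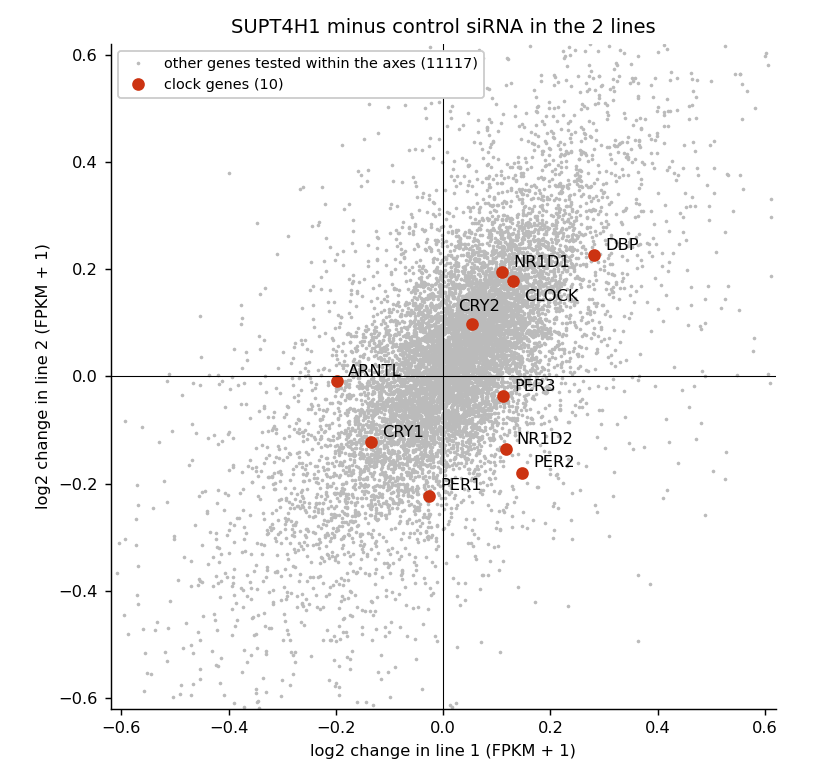
Log2 change in line 1 (x axis) against log2 change in line 2 (y axis), both on the log2(FPKM + 1) scale, for the 10 clock genes (red) and the other genes tested (grey), of which 359 lie outside the axes. PER2, PER3 and NR1D2 lie in the lower right, higher in line 1 and lower in line 2, and the 4 genes in the upper right are DBP, NR1D1, CLOCK and CRY2.

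Of 80 other genes of the clock, listed by role, 71 were tested, and 13 rose and 17 fell, with a median log2 change of 0.02, beside 26.4% and 15.0% of all genes. The largest changes were falls of transcription regulators. BHLHE40 (DEC1), a repressor that competes for E-boxes, had 3.41 and 3.48 FPKM with control siRNA in line 1 and 1.34 and 1.30 with SUPT4H1 siRNA. Line 2 gave 8.13 and 8.50 FPKM in control and 4.83 and 5.27 in SUPT4H1 siRNA samples. It was lower in each line, and all 4 samples of line 2 lay above all 4 of line 1 (log2 change -0.78, limma adjusted p = 5.31e-05, and adjusted p = 0.384 without the replicate block). NPAS2, which can stand in for CLOCK as partner of ARNTL, fell from 4.74 ± 0.19 to 3.50 ± 0.31 FPKM (SD, n = 4), a log2 change of -0.35 (adjusted p = 0.0011, and 0.0191 without the replicate block). ID2, an inhibitor of basic helix-loop-helix factors, had 129.5 ± 16.2 FPKM with control and 96.8 ± 18.2 with SUPT4H1 siRNA (log2 change -0.43, adjusted p = 1.4e-04, and 0.152 without the replicate block). NR4A1, an immediate early nuclear receptor induced by cyclic AMP, had 2.85 ± 0.48 FPKM with control and 1.83 ± 0.87 with SUPT4H1 siRNA (log2 change -0.49, adjusted p = 0.00299, and 0.264 without the replicate block).

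The other activator paralog, ARNTL2, rose by 0.24 on the log2 scale (adjusted p = 0.027, and 0.215 without the replicate block), so that 1 of the 2 rose and 1 fell. This call was also lost with the replicate number added to the block (0.0639), with no filter on FPKM (0.0622) and without any 1 of 5 of the samples, with adjusted p up to 0.0784: both samples of line 2 with control siRNA, both with SUPT4H1 siRNA, and SUPT4H1 line 1 replicate 1. Of the ROR receptors, which bind the same elements as NR1D1 and NR1D2, only RORA was high enough to test, with a log2 change of -0.13 (adjusted p = 0.0361, 0.232 without the replicate block, 0.085 with the replicate number added to it, 0.0674 with no filter on FPKM and up to 0.1 when 1 sample is left out). RORA lost its call without control line 1 replicate 1, SUPT4H1 line 1 replicate 1 or any sample of line 2. Neither of the 2 D-box factors tested was called, TEF and NFIL3, the latter a repressor at the sites DBP activates, and HLF was at a mean of 0.04 FPKM. Among the 5 bHLH and other repressors 1 rose (TIMELESS, log2 change 0.20, adjusted p = 0.00574, and 0.0626 without the replicate block) and 1 fell (BHLHE40). These genes, and those of the next sentences other than NR4A1, ID2 and BHLHE40, were named after their values were seen.

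The counts of this paragraph and of the one before stand beside 26.4% of all genes called higher and 15.0% called lower. Of 13 kinases and phosphatases, 3 rose and 2 fell. CSNK1D, a casein kinase that marks PER proteins for breakdown, rose from 27.2 ± 0.56 to 30.6 ± 0.51 FPKM (adjusted p = 8.97e-04, and 0.0286 without the replicate block). Of 9 ubiquitin ligases and proteases 3 rose and 1 fell, with FBXW7 the largest rise (log2 change 0.28, adjusted p = 0.0048, and 0.165 without the replicate block). Of 22 cofactors and chromatin factors 3 rose and 3 fell, KAT2B (PCAF), an acetyltransferase, with a log2 change of 0.30 (adjusted p = 2.34e-04, and 0.0487 without the replicate block). ID1, an inhibitor like ID2, also had a log2 change of 0.30 (adjusted p = 0.0378), a call that was lost without the replicate block (0.185), with the replicate number added to it (0.0858), with no filter on FPKM (0.0937), with median-ratio scaling (0.0566), and without any 1 sample of line 1 or replicate 1 of either siRNA in line 2 (up to 0.0981). Of 6 output genes 1 rose and 2 fell.

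Among the 11 glucocorticoid and cyclic AMP input genes 1 rose and 6 fell, with a median log2 change of -0.09, beside 26.4% and 15.0% of all genes. Without the replicate block 0 of the 6 falls were called by limma (adjusted p from 0.171 to 0.653). CREB1, the cyclic AMP response factor, fell by 0.28 on the log2 scale (limma adjusted p = 3.66e-04, and 0.171 without the replicate block). The difference between the lines was called for 8 of the 71 other clock genes, with the change in line 2 the lower one for 5 and the higher one for 3, beside 8.87% of all genes. NR4A1 was among the 5 (log2 change -0.25 in line 1 and -0.73 in line 2, adjusted p of the difference 0.00514). So was TSC22D3 (GILZ), a glucocorticoid-induced gene: line 1 gave 9.78 and 9.75 FPKM with control and 9.15 and 10.03 with SUPT4H1 siRNA, and line 2 gave 8.82 and 9.02 against 6.49 and 6.60. Its log2 change was -0.02 in line 1 and -0.40 in line 2 (adjusted p of the difference 0.00777), beside -0.03 and -0.22 for PER1 and 0.15 and -0.18 for PER2. The opposite order was seen for KLF10, a Krüppel-like repressor among the output genes (-0.40 in line 1 and -0.02 in line 2, adjusted p of the difference 0.00269), and for BHLHE40 (-0.94 and -0.62, 0.0289). It was also seen for the output gene WEE1 (-0.05 and 0.28, 0.00692). The other genes with a called line difference were ID3 (0.73 and -0.05, 0.00829), SIAH2 (-0.07 and -0.27, 0.0212) and PPP1CC (-0.05 and -0.24, 0.0378). KLF10 passed over both lines at adjusted p = 0.0365, but not without the replicate block (0.278), with the replicate number added to it (0.0861), with no filter on FPKM (0.0873) or without any 1 sample of line 1 (up to 0.0985). No other input gene tested had a called line difference. Nearest to the threshold was NR3C1, the glucocorticoid receptor gene (-0.03 in line 1 and -0.18 in line 2, limma adjusted p of the difference 0.072). KLF9 was at 0.429, ERRFI1 at 0.401 and CREM at 0.323. FKBP5, too low to test, read 0.998 and 0.825 FPKM with control and 0.755 and 0.725 with SUPT4H1 siRNA in line 1. Its line 2 levels were 0.940 and 0.844 against 0.941 and 0.993. Any link between these changes was not tested. Over both lines TSC22D3 passed at adjusted p = 0.0414, but not without the replicate block (0.44), with the replicate number added to it (0.0883), with no filter on FPKM (0.0959), without SUPT4H1 line 1 replicate 1 (0.0676) or without any 1 sample of line 2 (up to 0.116).

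**Figure D4:**
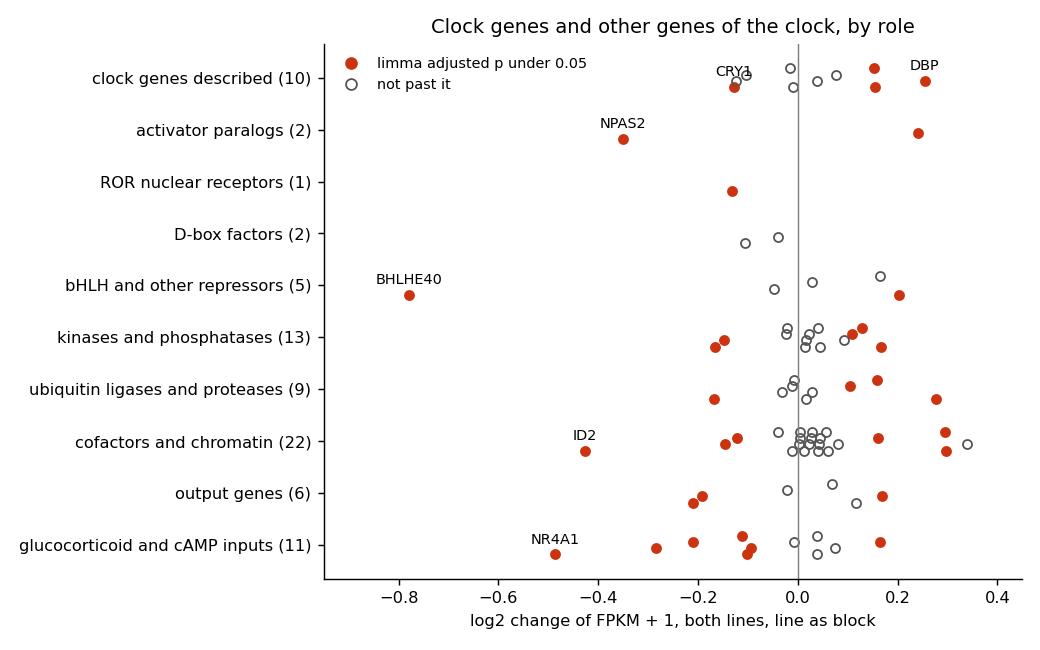
Log2 change over both lines (line as block) of the 10 clock genes and of the 71 other genes of the clock tested, in rows by role with the number tested; filled points passed the limma adjusted p of 0.05 and open points did not. BHLHE40, NR4A1, ID2 and NPAS2 lie farthest to the left, and DBP is the rightmost of the 10 clock genes.

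With the mean of each line taken off, profiles of the 10 genes over the 8 samples can be compared as a description only, since all points share the 2 siRNA groups. CLOCK correlated with NR1D1 at Pearson r = 0.973, with DBP at 0.926 and with CRY2 at 0.866. Both CRY1 (-0.767 with CLOCK and -0.872 with DBP) and PER1 (-0.801 and -0.702) ran against them. PER2 correlated with NR1D2 at 0.926 and with PER3 at 0.724, and with CLOCK at -0.211. The genes most like CLOCK by this measure were SPECC1L, GLIPR2, EXOC5, AKR7A2 and TMEM159 (r = 0.991 to 0.998), those most like NR1D1 were ZNF385A, C1orf35, HCFC1, SH2B1 and SNX1 (0.988 to 0.994), and those most like DBP were EPS15L1, COMMD2, MBP, HMOX2 and GHR (0.991 to 0.993). CRY1 was most like EGFL7, LETMD1, EPAS1, LIN52 and PNRC1 (0.981 to 0.990). Such values are common here: 1433 of the genes tested had r above 0.9 with CLOCK, 1246 with DBP, 1182 with NR1D1 and 471 with CRY1.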

How the data were processed

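Polyadenylated RNA of 8 samples was measured, 2 replicates of each siRNA in each of 2 lines. The deposited tables hold FPKM per gene, a status and the bounds of an interval, per the file headers, on hg19, per the submitters' processing notes. The sources used here do not give the aligner, the quantification tool, the annotation or any use of strand. FPKM summed to 288293 to 305680 per sample, and 11321 to 11447 of the 27032 rows reached 1 FPKM. The number of fragments is unknown. FPKM are relative: a larger share of a few transcripts lowers all others.

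Rows of 1 symbol were summed, and genes with a mean FPKM of at least 1 and status OK in every sample were tested (11486 genes, of which 129 sum several rows; 12 were left out by status). limma 3.58.1 in R 4.3.3 was fitted to log2(FPKM + 1) with a variance trend and the terms line and siRNA, 2-sided, with Benjamini-Hochberg adjustment over all genes tested. Within-line changes and their difference came from a fit of 4 group means. The fits were tested on simulated data. The line pairs the groups: deviations of same-line samples from their siRNA means correlated at 0.713 to 0.81 across genes. Any 2 samples had exactly equal deposited values above 0 in at most 1 of 11498 genes. The alternatives tried are those of the closing section.

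Members and lists were chosen with earlier results of these data known. Named were the 10 genes, SUPT4H1, the called genes of the lists with an absolute log2 change of at least 0.3, and the 5 genes most like the member of lowest p in each role, by Pearson r with line means taken off. Further genes were named after their values were seen, as stated beside them. Promoters came from RefSeq (GRCh38.p14); ARNTL was matched as BMAL1. Tables were summarised with pandas 2.3.3 and numpy 2.4.6 under Python 3.11.15, and drawn with matplotlib 3.10.9.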

Additional observations from a re-analysis of the deposited data

Results flagged for a closer look

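PER2 responded differently in the lines: its log2 change in line 2 minus that in line 1 was -0.327 (limma adjusted p = 0.0325), with both SUPT4H1 siRNA samples above both control samples in line 1 and below them in line 2. NR1D2 did the same, with a difference of -0.253 (adjusted p = 0.0161). Leaving out any 1 sample ended the call of PER2, and leaving out 1 of 4 samples that of NR1D2, as given above.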

How the results depend on the processing

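The line decides how many genes pass. With no replicate block, 405 genes rose and 199 fell in place of 3036 and 1724, 0 clock genes rose and 0 fell in place of 3 and 1 (limma, with 3 at an unadjusted p under 0.05), and of the other genes of the clock 2 rose and 1 fell in place of 13 and 17. Labels do not say that replicate numbers pair the siRNAs within a line, and deviations of same-numbered samples correlated at 0.196 in line 1 and 0.0846 in line 2; with the line and that number as replicate block, 11 of the other clock genes fell and the same counts of clock genes passed. Scaling by median ratios moved the share of rises among all calls from 63.8 to 50.2%, and added PER1 as a second clock gene lower (-0.149, adjusted p = 0.0358), as did leaving out the variance trend (2 lower, PER1 at adjusted p = 0.0478). With a mean of at least 5 FPKM only 4 clock genes were tested, 2 rose, 0 fell and the line difference passed for 1. DBP, CLOCK, NR1D1 and CRY1 kept their calls in every other setting that tested them. Leaving out 1 sample gave 2431 to 2884 rises and 1378 to 1631 falls, 3 to 4 clock genes higher and 1 to 2 lower, 11 to 14 and 11 to 16 of the other clock genes, and 0 to 1 clock genes with a line difference (3 to 5 at an unadjusted p under 0.05), where 518 to 770 genes had one. The added calls were ARNTL without SUPT4H1 line 2 replicate 1 (adjusted p = 0.0404), CRY2 without control line 1 replicate 2 (0.0364) and PER1 without SUPT4H1 line 1 replicate 2 (0.0425). Uncalled values near 0 changed sign: PER2 ranged from -0.0503 to 0.0273, NR1D2 from -0.0486 to 0.0256 and the line difference of CRY1 from -0.0238 to 0.0488. A pseudocount of 0.1 gave 0.291 for DBP, 0.189 for CLOCK, 0.172 for NR1D1 and -0.155 for CRY1. Leaving out small RNA genes, chosen after seeing the data, changed no call of a clock gene. The causes were not tested.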
